A study of Mus musculus with 6 samples.

Results

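The genes through which cells meet diphtheria toxin (DT) were followed in the RNA of hippocampal astrocytes. They are 10 genes, picked by name from the 24421 rows of the deposited expression tables, and all 10 were listed and passed the filter on low values, as did 15137 genes in all. *Hbegf* encodes heparin-binding EGF-like growth factor, whose membrane-bound form is the entry receptor of the toxin in species that are sensitive to it. *Eef2* encodes elongation factor 2, the protein that the toxin inactivates, *Eef2k* its kinase, and *Dph1*, *Dph2*, *Dph3*, *Dph5*, *Dph6*, *Dph7* and *Dnajc24* build the modified residue on elongation factor 2 that the toxin recognizes.

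Both groups consisted of adult male *Siglech* dtr/dtr mice on the C57BL/6 background. The dtr allele, carried by treated mice and controls alike, holds a DT receptor inserted in *Siglech* beyond its coding sequence, so that microglia, which use this gene, become sensitive to the toxin. The PBS group (n = 3 libraries) received PBS and the DT group (n = 3 libraries) DT at 50 μg/kg, both by intraperitoneal injection, and astrocytes were taken 2 days later by removing CD11b-positive cells and then binding ACSA-2-positive cells to magnetic beads. Each library was made from a pool of 2 mice. No mice without the allele that had received DT were analysed here, so an effect of the toxin itself and an effect of microglial loss cannot be told apart.

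DT is taken up after binding the membrane form of HB-EGF, its catalytic chain crosses into the cytosol, and there it transfers ADP-ribose to diphthamide. Diphthamide is a histidine of elongation factor 2 that is rebuilt in several enzymatic steps and is found in no other known protein. The altered factor no longer moves the ribosome along the messenger RNA, and protein synthesis stops. Mouse and rat cells resist the toxin because their own HB-EGF binds it poorly, which is why an inserted receptor can direct the toxin to chosen cells. In the brain, HB-EGF is also known as a growth factor made by neurons and glia that signals through the EGF receptor.

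A pair of codons of *Eef2* are shown because the toxin and the kinase act on the residues they encode. Each is given in capitals within 27 bases of the coding strand, read 5′ to 3′ from the GENCODE M21 transcript. Codons are counted from the start codon of 858, and the gene lies on the plus strand, chromosome 10 of mm10 from 81176631 to 81182498, with 14 exons in this transcript.
diphthamide histidine codon: gctgatgccattCACcggggaggtggc
Eef2k threonine codon: gagacgcgcttcACTgacactcgcaag
The histidine codon is number 715, in exon 12, and its window covers chr10:81181291-81181317. The threonine codon is number 57, in exon 2, and its window covers chr10:81177818-81177844. Phosphorylation of this threonine by *Eef2k* is known to slow elongation, and both changes are made on the protein, so RNA levels do not show how much of the factor carried either.

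The libraries held 21704891 to 32933975 reads, which are whole numbers recovered from the CPM and may differ from sequenced reads. Values are CPM, the reads of a gene relative to the depth of its library, which the authors scaled with TMM factors of 0.974 to 1.02, and TPM, which also account for transcript length. CPM were used to compare groups and TPM to compare genes. Group differences are log2 fold changes, DT against PBS, of CPM + 0.1, fitted over all genes tested with limma and adjusted by the Benjamini-Hochberg method. They understate changes of genes with few reads. The labels were checked with *Siglech*, at 0.967, 2.14 and 1.93 CPM in the PBS libraries and at 0 reads in each DT library. *Gfap* and *Serpina3n*, astrocyte genes that rise in reactive states, rose by 1.93 and 3.45 on the log2 scale (adjusted p = 8.20e-05 and 7.20e-06 from limma). The 10 astrocyte markers summed to 62811 to 67818 CPM after PBS and to 63101 to 69996 CPM after DT. Of these, 2 were at an unadjusted p-value under 0.05 in limma, beside 10.4% of all genes tested. None of the 10 markers passed the threshold in limma or edgeR. DESeq2 called 1 higher and 1 lower, *Atp1b2* and *Glul*, named here after their values were seen. Over all 15137 genes tested DESeq2 called 227 higher and 98 lower.

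None of the 10 genes passed an adjusted p-value of 0.05 in limma, in edgeR or in DESeq2, where 0.713% of all genes tested did so in limma. *Hbegf* was lower and *Eef2k* higher in every DT library than in every PBS library, and these were also the members with an unadjusted p-value under 0.05. Such separation was seen in 16.3% of all genes tested, and an unadjusted p-value under 0.05 in 10.4%. The median log2 fold change of the 10 genes was -0.01, with 5 positive and 5 negative, beside a median of -0.01 for all genes tested. Their median absolute log2 fold change was 0.05, beside 0.11 for all genes tested.

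*Hbegf*, the homolog of the inserted receptor, lies on chromosome 18, minus strand, from 36504927 to 36515805. Its CPM were 83.9, 76.2 and 71.3 in the PBS libraries and 69.8, 66.4 and 64.0 in the DT libraries, from 1467 to 2529 reads per library. The lowest PBS library stood just above the highest DT library, so the groups did not overlap but nearly touched. The group means were 77.2 ± 6.33 and 66.7 ± 2.94 CPM (SD, n = 3 each), a log2 fold change of -0.21 (standard error, SE, 0.08, 95% interval -0.38 to -0.03, limma adjusted p = 0.412). The interval corresponds to a change of CPM between -23.4% and -2.03%. Over 16 alternative settings the log2 fold change stayed between -0.26 and -0.14, with adjusted p-values of 0.197 to 0.727.

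**Figure D1:**
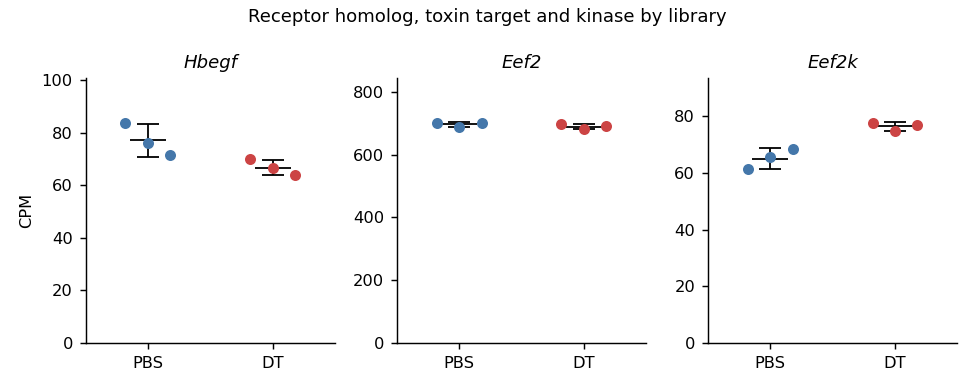
CPM (linear axes from 0) of *Hbegf*, *Eef2* and *Eef2k* in the 3 PBS libraries (blue) and 3 DT libraries (red), with the mean and SD of each group as lines. *Hbegf* is lower in all DT libraries, *Eef2* lies between 680 and 702 CPM in all 6, and *Eef2k* is higher in all DT libraries.

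*Hbegf* was among the more abundant genes of these cells, at 95.1 ± 6.77 TPM in the PBS group and 83.0 ± 2.61 TPM in the DT group (SD, n = 3 each), which is percentile 86.3 among all genes tested. How much of the *Hbegf* RNA came from cells other than astrocytes was not tested, and in bulk samples fewer cells of a type and less RNA per cell cannot be told apart. Of 12 microglial markers, 7 passed the threshold as lower after DT, where 0.159% of all genes tested did so, and the 12 summed to 233 to 260 CPM after PBS and to 139 to 161 CPM after DT. These sums include *Sall1*, named after its values were seen, at 71.1 to 87.2 CPM over all libraries. Its log2 fold change was -0.04 (adjusted p = 0.930 from limma), so the sums do not give the share of microglial RNA left after DT. All 10 endothelial markers had negative log2 fold changes, with a median of -0.39. They summed to 836 to 1317 CPM after PBS and to 693 to 828 CPM after DT. None passed the threshold in limma or edgeR, and 5 were at an unadjusted p-value under 0.05 in limma, beside 10.4% of all genes tested. DESeq2 called 2 of them lower, *Cldn5* and *Kdr*, named here after their values were seen, beside 98 of all 15137 genes tested. The part of either in the *Hbegf* values was not tested. Nor was it tested whether RNA of the inserted receptor adds to the *Hbegf* row.

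*Eef2* was expressed at a level that 99.0% of the genes tested did not exceed. Its TPM were 652, 661 and 663 in the PBS libraries and 650, 659 and 661 in the DT libraries, with an overlap of the groups. Its CPM were 702, 688 and 701 in the PBS libraries and 697, 680 and 690 in the DT libraries, from 15256 to 22827 reads. The log2 fold change of CPM was -0.02 (SE 0.05, limma adjusted p = 0.943), with a 95% interval from -8.83% to 7.15%. The difference was smaller than its standard error.

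*Eef2* was also among the steadiest genes. Its coefficient of variation within groups was 1.19%, where the number of reads alone gives 0.762%. Its log2 SD within groups was 0.02, smaller than that of each of the 153 other genes within a factor of 1.5 of its level, whose median was 0.09. The 3 genes whose log2 CPM ran most like those of *Eef2* over the 6 libraries, among 15136 compared, were *Sepp1* (Pearson's r = 0.995), the gene of the plasma selenium carrier selenoprotein P, *Selk* (0.994), a selenoprotein gene of the endoplasmic reticulum, and *Epm2a* (0.985), the gene of the glycogen phosphatase laforin. For *Hbegf* they were *Pyroxd1* (0.994), *Phlpp1* (0.992), a protein phosphatase gene, and *Acss1* (0.992), the gene of a mitochondrial acetyl-CoA synthetase. These likenesses are descriptions over 6 libraries that share their depth and scaling. They are the highest of 15136 correlations, and how high the highest would be among unrelated genes was not tested.

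*Eef2k*, the calmodulin-dependent kinase that phosphorylates elongation factor 2, lies on chromosome 7, plus strand, from 120842831 to 120907450. Its CPM were 61.3, 65.4 and 68.4 in the PBS libraries and 77.7, 74.6 and 77.0 in the DT libraries, from 1331 to 2295 reads. The DT libraries lay close together and well above the highest PBS library. The group means were 65.03 ± 3.57 and 76.4 ± 1.65 CPM (SD, n = 3 each), a log2 fold change of 0.23 (SE 0.07, 95% interval 0.08 to 0.39, limma adjusted p = 0.261). This is a change of CPM of 17.6%, with an interval from 5.88% to 30.6%. Over the 16 alternatives the log2 fold change stayed between 0.19 and 0.27 and the adjusted p-value between 0.158 and 0.524.

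Per length, *Eef2k* was at 30.0 ± 2.01 TPM in the PBS group and 35.6 ± 0.404 TPM in the DT group (SD, n = 3 each), or percentile 61.4 of all genes tested. Its TPM were 4.26%, 4.65% and 4.76% of those of *Eef2* in the PBS libraries and 5.44%, 5.35% and 5.45% in the DT libraries. The kinase RNA was thus scarcer than that of its substrate in all 6 libraries, and the ratio was higher in each DT library than in any PBS library, without a test of its own. As *Eef2* varied little, the ratio repeats the separation of *Eef2k* itself. In CPM, 16.3% of all genes tested were separated in either direction. *Gm15774*, annotated as antisense to *Eef2k*, shares 101 exonic bases with it.

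The 7 diphthamide genes were expressed at much lower levels than *Eef2*. Their TPM summed to 107, 113 and 107 in the PBS libraries and to 115, 104 and 112 in the DT libraries. This was 16.5%, 17.1% and 16.1% of the TPM of *Eef2* in the PBS libraries and 17.7%, 15.7% and 17.0% in the DT libraries. The groups overlapped for the sum and for each of the 7 genes in CPM. The log2 fold changes had a median of 0.00, with 4 positive and 3 negative.

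Ordered by mean TPM over the 6 libraries, *Dph3* stood first at 28.4 TPM, followed by *Dph5* at 20.3, *Dnajc24* at 18.0, *Dph7* at 14.7, *Dph1* at 13.4, *Dph6* at 9.06 and *Dph2* at 5.93 TPM. *Dnajc24* was above *Dph7*, and *Dph1* above *Dph6*, in 6 of 6 libraries, and each other neighbour was above the next in 5 of 6. The ranges over the libraries were apart only between *Dph1* and *Dph6*, and all other neighbours overlapped. *Dph3* was at percentile 57.0 of all genes tested and *Dph2* at percentile 21.6.

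*Dph1* and *Dph2* encode the partners of an iron-sulfur enzyme that makes the first change to the histidine. *Dph1*, on chromosome 11, minus strand, from 75177643 to 75191241, was at 8.84, 10.3 and 9.92 CPM after PBS and at 9.47, 10.04 and 8.85 CPM after DT, with a log2 fold change of -0.03 (SE 0.13, limma adjusted p = 0.958). *Dph2*, on chromosome 4, minus strand, from 117888643 to 117892032, was at 4.65, 7.08 and 3.40 CPM after PBS and at 5.63, 4.42 and 5.45 CPM after DT, with a log2 fold change of 0.09 (SE 0.26, limma adjusted p = 0.941). *Dph1* thus varied little, while for *Dph2* the PBS libraries enclosed all DT libraries. With 74 to 235 reads per library, *Dph2* left the widest interval of the 10 genes, from -29.8% to 61.3%, where that of *Dph1* ran from -19.8% to 19.3%. Per length, *Dph1* was above *Dph2* in 6 of 6 libraries, by 1.74 to 3.498 times in TPM after PBS and 1.96 to 2.73 times after DT.

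Reads of *Dph1* cannot be fully separated from those of *Ovca2*, a neighbour that shares 969 exonic bases with it on the same strand and is named here for that reason, outside the rule for named genes. *Ovca2* was at 27.1, 25.5 and 22.7 CPM after PBS and at 24.2, 20.4 and 18.7 CPM after DT, and per length above *Dph1* in each library, at 20.9 to 29.4 TPM. Its log2 fold change was -0.25 (adjusted p = 0.515 from limma), and how reads were divided between both genes is not given in the sources used here.

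*Dph3* and *Dnajc24* encode small proteins that bind metal and assist the first step, *Dph3* as a donor of electrons to the iron-sulfur enzyme and *Dnajc24* as a J-domain co-chaperone. *Dph3*, on chromosome 14, minus strand, from 32080566 to 32085729, was at 28.8, 26.02 and 29.5 CPM after PBS and at 32.6, 19.0 and 35.9 CPM after DT. The DT group thus held both the highest values and the lowest, DT replicate 2. Its log2 fold change was 0.00 (SE 0.21, 95% interval -0.48 to 0.49, limma adjusted p = 0.998), and without DT replicate 2 it was 0.28 (adjusted p = 0.550 from limma).

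The spread of *Dph3* was larger than counting gives. With 585 to 863 reads per library its coefficient of variation within groups was 22.2%, against 3.78% from counting, and 96.3% of the 3131 genes within a factor of 1.5 of its level varied less. *Oxnad1*, which shares 320 exonic bases with *Dph3* on the opposite strand and is named only for this overlap, was at 38.9, 30.3 and 28.6 CPM in the DT libraries and so had no low value in DT replicate 2. A processed pseudogene, *Dph3b-ps*, lies on chromosome 13, and how reads common to such copies were treated is not given in the sources used here.

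*Dnajc24*, on chromosome 2, minus strand, from 105966709 to 106003549, was at 8.47, 8.02 and 5.88 CPM after PBS and at 8.29, 7.54 and 5.93 CPM after DT. The lowest library of each group was its replicate 3, and the 2 groups covered nearly the same range. The log2 fold change was -0.04 (SE 0.19, limma adjusted p = 0.970), from 128 to 266 reads, with an interval from -28.1% to 32.5%.

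**Figure D2:**
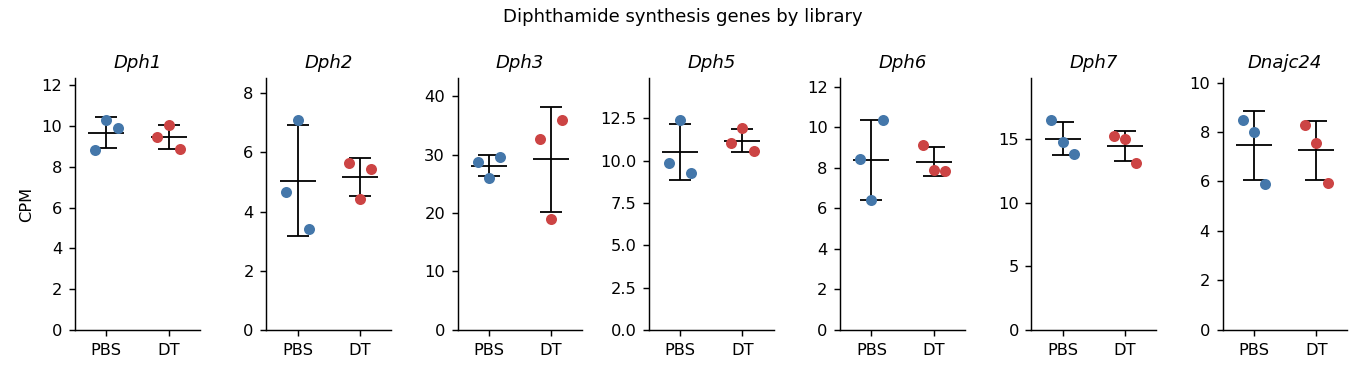
CPM (linear axes from 0, each gene on its own scale) of the 7 diphthamide genes in the 3 PBS libraries (blue) and 3 DT libraries (red), with the mean and SD of each group as lines. The groups overlap for every gene, and DT replicate 2 is the low point of *Dph3* at 19.0 CPM.

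*Dph5*, *Dph7* and *Dph6* act later, as the methyltransferase, the esterase that removes one of the methyl groups, and the ligase that adds the final amide. *Dph5*, on chromosome 3, plus strand, from 115887837 to 115934361, was at 9.85, 12.4 and 9.28 CPM after PBS and at 11.0, 11.9 and 10.6 CPM after DT, from 202 to 411 reads. Its log2 fold change was 0.10 (SE 0.14, limma adjusted p = 0.856), and the DT libraries lay inside the range of the PBS libraries.

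*Dph7*, on chromosome 2, plus strand, from 24962400 to 24972163, was at 16.5, 14.8 and 13.9 CPM after PBS and at 15.2, 15.0 and 13.1 CPM after DT, from 301 to 491 reads. Its log2 fold change was -0.06 (SE 0.12, limma adjusted p = 0.906), with overlapping groups. *Dph6*, on chromosome 2, minus strand, from 114516416 to 114654964, was at 8.43, 6.39 and 10.3 CPM after PBS and at 9.12, 7.90 and 7.85 CPM after DT, from 180 to 243 reads. For *Dph6* the PBS libraries enclosed all DT libraries, and its log2 fold change was 0.01 (SE 0.19, limma adjusted p = 0.991). The intervals ran from -14.3% to 33.9% for *Dph5*, from -19.9% to 15.5% for *Dph7* and from -25.2% to 35.1% for *Dph6*. Changes within these intervals were not excluded at this depth and number of libraries. How large a change would have passed the threshold was not tested.

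**Figure D3:**
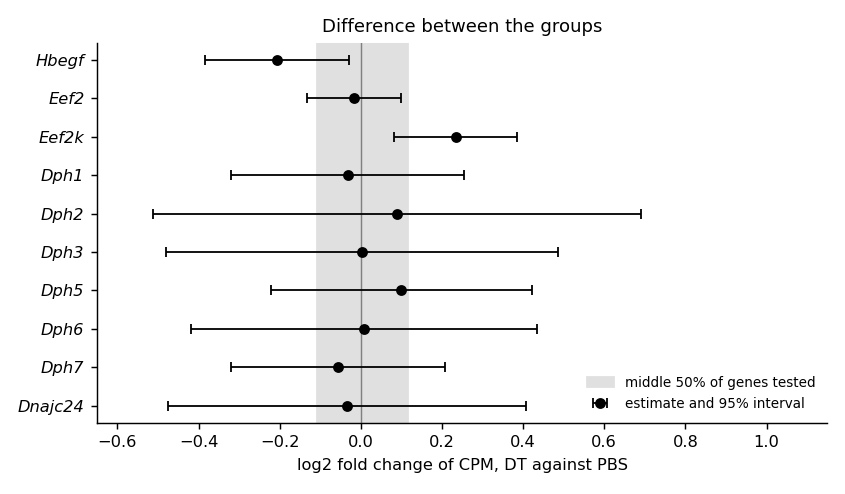
Log2 fold change of CPM, DT against PBS, of the 10 genes (points) with 95% intervals from limma (bars), the grey band marking the middle 50% of the 15137 genes tested. The intervals of *Hbegf* and *Eef2k* lie below and above 0, and that of *Eef2* is the narrowest, from -0.13 to 0.10.

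The spread of each gene was set against its depth. Counting error takes the recovered reads as sequenced reads, which was not tested. The coefficient of variation within groups exceeded counting error in all 10 genes, by 1.08 times for *Dph1*, where almost all spread was of the size that counting gives, and by 5.87 times for *Dph3*. *Dph2* had the highest, at 27.8% with 9.20% from counting. *Dph6* and *Dnajc24* stood at 17.7% and 17.6%, and *Eef2k* and *Hbegf* at 4.17% and 6.58%.

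**Figure D4:**
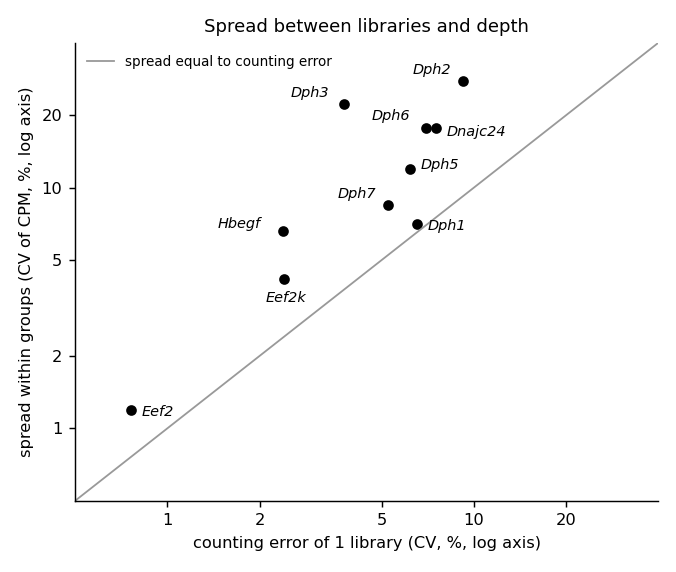
Coefficient of variation of CPM within groups against the coefficient that counting alone gives 1 library, both in % on log axes, for the 10 genes (points), with a line where both are equal. *Eef2* is lowest on both axes at 1.19% and 0.762%, and *Dph3* lies farthest above the line at 22.2% and 3.78%.

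Genes of the same pathways were read from 7 lists, described by counts and medians, beside which the median of all genes tested was -0.01 and the share called higher or lower 0.555% or 0.159%. The share of all genes tested at an unadjusted p-value under 0.05 in limma was 10.4%, to be set beside the counts of each list. A first list held 8 host genes used by the toxin on its way into the cytosol, such as the activating protease *Furin*, the HB-EGF partner *Cd9*, chaperones, and the reductase *Txnrd1*, which helps to free the catalytic chain. *Txnrd1* rose. It was at 56.3, 60.8 and 62.1 CPM after PBS and at 81.1, 82.5 and 77.8 CPM after DT, a log2 fold change of 0.43 (SE 0.07, limma adjusted p = 0.0306). Every DT library was above every PBS library. The call was lost, with adjusted p-values up to 0.175, without any 1 of the 6 libraries and without a variance trend.

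*Txnrd1* was the only 1 of the 8 genes past the threshold in limma, 7 had positive log2 fold changes, and the list's median was 0.19. At an unadjusted p-value under 0.05 in limma were 3 of the 8, beside 10.4% of all genes tested. In 4 of the 8 every DT library was above every PBS library, beside 16.3% of all genes tested separated in either direction. Without PBS replicate 2 the median was 0.10 and without DT replicate 3 it was 0.11. *Hsp90aa1* and *Hsp90ab1*, the chaperone genes with the highest TPM of the list, had log2 fold changes of 0.25 (adjusted p = 0.391 from limma) and 0.12 (adjusted p = 0.629 from limma). DESeq2, which called 227 of all 15137 genes tested higher, called a second gene, *Cd9*, named here after its values were seen. *Cd9* was at 53.9, 54.5 and 61.9 CPM after PBS and at 98.0, 72.5 and 81.1 CPM after DT, a log2 fold change of 0.55 (adjusted p = 0.0976 from limma and 0.000729 from DESeq2). For *Cd9* too, no DT library was as low as the highest PBS library.

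The ligands and receptors of the EGF family, to which HB-EGF belongs, made up a list of 14, of which 11 were tested. None passed the threshold in limma, edgeR or DESeq2, 1 was at an unadjusted p-value under 0.05, 6 were positive and 5 negative, and the median log2 fold change was 0.03. The median turned negative without PBS replicate 1 (-0.03) or 2 (-0.04) and without DT replicate 1 (-0.04) or 2 (-0.11). *Egfr*, the receptor of HB-EGF, was the most abundant per length, at 115 ± 3.15 TPM in the PBS group and 120 ± 10.3 TPM in the DT group (SD, n = 3 each). The ligand gene *Tgfa* was at 24.5 ± 2.41 and 28.8 ± 1.37 TPM (SD, n = 3 each), below *Hbegf* on the same scale in both groups. *Ereg* had no reads in any library.

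Of 10 genes that shed membrane-bound HB-EGF or regulate its shedding, proteases of the ADAM family among them, none passed the threshold in limma, edgeR or DESeq2 and 1 was at an unadjusted p-value under 0.05. The median log2 fold change was -0.04, and 0.01 without DT replicate 1, with 4 positive and 6 negative. *Timp3*, an inhibitor of these proteases, was at 439 ± 15.1 TPM in the PBS group and 426 ± 7.41 TPM in the DT group (SD, n = 3 each). *Nrd1*, the gene of the HB-EGF-binding peptidase nardilysin, was at 57.1 ± 0.939 and 56.4 ± 4.52 TPM (SD, n = 3 each).

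The elongation list held the partners of elongation factor 2 and enzymes that modify elongation factors. Of 16 genes tested none passed the threshold in limma, edgeR or DESeq2 and 0 were at an unadjusted p-value under 0.05, with 11 positive, 5 negative and a median log2 fold change of 0.03, or 0.06 without DT replicate 2. *Eef1a1*, which brings aminoacyl-tRNA to the ribosome, was at 1531 ± 40.8 TPM in the PBS group and 1650 ± 64.0 TPM in the DT group (SD, n = 3 each), with a log2 fold change of CPM of 0.09 (adjusted p = 0.607 from limma). *Eef2* stood at 0.419 to 0.437 of the TPM of *Eef1a1* in the PBS libraries and at 0.384 to 0.407 in the DT libraries. *Eef1g*, a subunit of the exchange factor, was at 268 ± 8.63 and 271 ± 2.63 TPM (SD, n = 3 each).

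Regulators of *Eef2k*, namely calmodulin, the kinases that act on it and the phosphatase that opposes it, gave 16 genes tested, none past the threshold in limma, edgeR or DESeq2 and 2 at an unadjusted p-value under 0.05. Their median log2 fold change was 0.02, with 10 positive and 6 negative. *Calm3*, a gene of this list with a high TPM, had a log2 fold change of CPM of 0.07 (adjusted p = 0.747 from limma). *Mapk13* had no reads in any library.

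Of 22 genes that act on stalled ribosomes, *Trip4*, which encodes a subunit of the complex that splits collided ribosomes and also a coactivator of transcription, was called, as lower. It was at 66.0, 61.2 and 55.1 CPM after PBS and at 38.5, 41.3 and 41.4 CPM after DT, a log2 fold change of -0.58 (SE 0.08, limma adjusted p = 0.0223). All DT libraries were below all PBS libraries. The call was lost, with adjusted p-values up to 0.109, in TPM, without a variance trend, and without any 1 library other than PBS replicate 3. The list had 6 positive and 16 negative log2 fold changes and a median of -0.06, and its most abundant members per length, the collision sensor *Edf1* and the quality control factor *Tcf25*, had log2 fold changes of 0.02 and -0.10 (adjusted p = 0.958 and 0.812 from limma).

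The last list held 15 targets of the integrated stress response, a gene program started by several kinds of cell stress, and 14 were tested. None passed the threshold in limma, edgeR or DESeq2 and 3 were at an unadjusted p-value under 0.05, with 5 positive, 9 negative and a median log2 fold change of -0.06. *Phgdh*, of serine synthesis, was at 547 ± 12.2 TPM in the PBS group and 498 ± 26.5 TPM in the DT group (SD, n = 3 each), with a log2 fold change of CPM of -0.15 (adjusted p = 0.478 from limma). *Slc7a11*, the cystine transporter, was at 230 ± 23.0 and 260 ± 28.2 TPM (SD, n = 3 each), with a log2 fold change of CPM of 0.16 (adjusted p = 0.642 from limma).

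**Figure D5:**
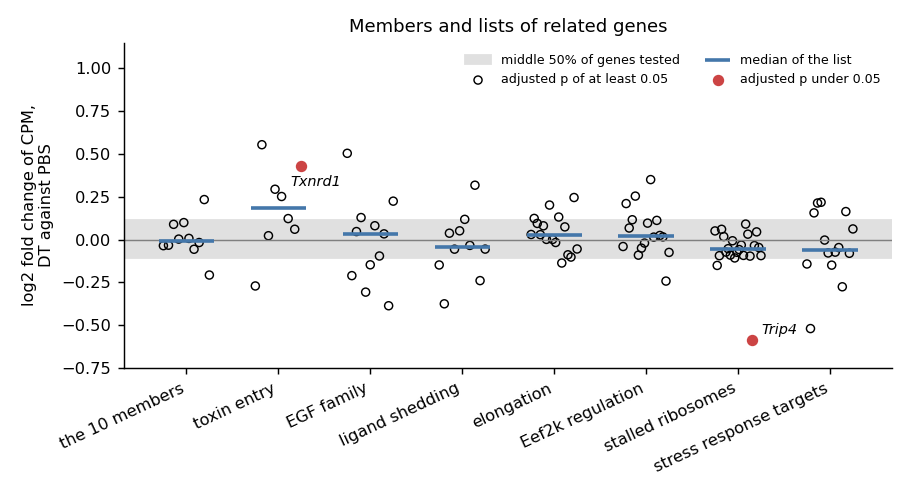
Log2 fold change of CPM, DT against PBS, for the 10 genes and for the tested genes of the 7 related lists (open circles, adjusted p of at least 0.05 from limma, and red points, under 0.05), with each list's median as a blue line and the middle 50% of the 15137 genes tested as a grey band. *Txnrd1* at 0.43 and *Trip4* at -0.58 are the red points, and the medians lie within the band for every list other than that of toxin entry, at 0.19. Without PBS replicate 2 or without DT replicate 3 that median would be at 0.10 or 0.11. Those values are inside the band as drawn from all libraries, and no band was made for the fits with a library left out. The band describes single genes, and no range for medians of lists was made.

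Markers of further cells moved as follows, and their part in the values above was not tested. Of 10 border macrophage markers, 7 passed the filter and were tested. In limma 3 of them were called higher, where 0.555% of all genes tested were. All 7 had positive log2 fold changes, with a median of 1.46. The filter takes the mean over both groups, so a marker scarce after PBS could pass through the DT group alone. How far this shaped the count and the median was not tested. All 10 markers together summed to 39.0 to 60.8 CPM after PBS and to 97.0 to 112 CPM after DT. None of the 10 neuronal, 8 oligodendrocyte, 8 oligodendrocyte precursor, 7 ependymal or 8 choroid plexus markers tested was called in limma or edgeR. DESeq2 called 2 precursor markers lower, *Pdgfra* and *Gpr17*, and 1 ependymal marker higher, *Foxj1*, all named after their values were seen. Over all 15137 genes tested it called 98 lower and 227 higher. At an unadjusted p-value under 0.05 in limma were 0, 1, 3, 3 and 5 markers of these lists in turn, beside 10.4% of all genes tested. All 7 ependymal and all 8 choroid plexus markers had positive log2 fold changes, with medians of 0.48 and 1.64. Every DT library was above every PBS library for 6 and 2 of them. Groups were apart in either direction in 16.3% of all genes tested. The neuronal, oligodendrocyte and precursor lists had 7, 2 and 2 positive and 3, 6 and 6 negative, with medians of 0.11, -0.25 and -0.23. The choroid plexus markers summed to 48.3 to 863 CPM after PBS and to 543 to 1505 CPM after DT, the ependymal markers to 247 to 293 CPM and 307 to 519 CPM.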

How the data were processed

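RNA of MACS-isolated astrocytes was compared between 3 PBS and 3 DT libraries, which came from 3 independent experiments. According to the paper and the submitters' processing notes, the authors trimmed reads with Trim Galore 0.5.0, mapped them to mm10 with HISAT2 2.1.0 using strand information, removed ribosomal RNA reads with BEDTools 2.25.0, quantified genes with StringTie 1.3.5 and used edgeR 3.24.3. The authors deposited TPM and CPM per gene. The deposited CPM are a signal scaled with TMM factors, and 100% of values were whole multiples of a step of their library (tolerance 0.0005 CPM). These whole numbers are called reads here. They go back to the StringTie quantification, and whether they equal sequenced reads was not tested. The design had assumed plain CPM. The p-values, q-values and fold changes of the authors' own comparison were not used. Dates had replaced 27 gene names, none of them a member.

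Genes at 0.5 CPM or more on average were compared as log2(CPM + 0.1) by limma 3.58.1 (R 4.3.3), two-sided and with a trend of the variance, with Benjamini-Hochberg adjustment over 15137 genes. Alternatives were pseudocounts of 0.5 and 1, no filter, a minimum of 2 CPM, TPM, quantile normalization, no variance trend, a replicate block, each library left out, and edgeR 4.0.16 (quasi-likelihood) and DESeq2 1.42.0 on the recovered reads. The fits were tested on simulated data. Replicate libraries differed beyond sampling noise. The members and lists were chosen with earlier results of these data known. Named are all members, list genes past the threshold, the 2 of each related list with the highest TPM, the 3 genes most like *Hbegf* and *Eef2*, *Siglech*, *Gfap* and *Serpina3n*. A gene that this rule names is not reported here. Older symbols matched 7 list genes. Coordinates and the *Eef2* sequence are from GENCODE M21 on mm10.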

Additional observations from a re-analysis of the deposited data

How the results depend on the processing

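None of the 10 genes passed the threshold in any of the 16 alternatives, and 1 to 2 of them were at an unadjusted p-value under 0.05. *Hbegf*, *Eef2k* and *Dph5* kept their direction in all 16. Log2 fold changes near 0 turned: with TPM, *Dph3* was at -0.016, with quantile normalization, *Eef2* was at 0.0044, *Dph3* at -0.0068 and *Dph6* at -0.030, and *Dph6* was at -0.0075 with edgeR and -0.0091 with DESeq2. With 1 library left out, *Dph1* ranged from -0.096 to 0.013, *Dph2* from -0.16 to 0.36, *Dph3* from -0.17 to 0.28, *Dph5* from 0.016 (without PBS replicate 3) to 0.22 (without PBS replicate 2), *Dph6* from -0.17 to 0.17, *Dph7* from -0.11 to 0.012 and *Dnajc24* from -0.20 to 0.10. The cause was not tested.

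Over all genes, 84 were called higher and 24 lower. Without a variance trend these were 35 and 11, and with DESeq2 227 and 98. With 1 library left out, 39 to 72 were called higher, fewest without DT replicate 1 or 2 (39 and 40), and 9 to 20 lower, fewest without PBS replicate 2 (9). These fits hold fewer samples. In the toxin entry list DESeq2 called 2 genes higher where limma called 1.

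With a replicate block, 79 genes were higher, 30 lower and 0 of the 10 genes past the threshold. Same-numbered libraries had correlations of their deviations of 0.115, 0.0105 and 0.118 over 15137 genes, so not every pair was above 0.1 and the numbers were not taken to pair the libraries. Replicates 1 and 3 correlated best with their own numbers, and PBS replicate 2 was at 0.0107 with DT replicate 1. With 3 libraries a group, the spread limits what could be seen of *Dph2*, *Dph3*, *Dph6* and *Dnajc24*.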
